A study of Mus musculus with 37 samples.

Results

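Astrocytes of the cerebral cortex build a cytoskeleton from type III and type IV intermediate filament proteins, and 4 genes for such proteins are described here: Gfap, Vim, Nes and Synm. RNA was sequenced from astrocytes isolated from the cortex of mice 4 months after controlled cortical impact (CCI), a model of traumatic brain injury in which a piston strikes the exposed cortex, or after sham surgery. Injured mice had been sorted by EEG and video recording into those that developed post-traumatic epilepsy (PTE+) and those that did not (PTE-). The 4 genes are 4 of the 21975 genes listed in the deposited expression tables, and each was found there by its Ensembl identifier. The genes were selected on measured values of these data, with the contrasts among sham, PTE- and PTE+ mice in view. Their group differences are therefore given as a description, and calls of these genes in those contrasts are no test of them.

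The ipsilateral (struck) cortex gave 5 sham, 10 PTE- and 4 PTE+ libraries, and the opposite cortex gave 5, 9 and 4. They came from 20 mice, of which 15 were injured, and 17 mice gave a library from each hemisphere (5 sham, 9 PTE- and 3 PTE+). The mice were wild type males, named CD1 in the study's methods and CD31 in the sample labels. Their age is not given in the sources used here. Sham mice received the craniectomy and the recording electrodes but no impact, so every group, sham included, had surgery on the skull and an implanted electrode. Cells were captured with beads against ACSA-2, a surface antigen of astrocytes, after papain dissociation of the tissue. The study used Gfap itself as one check of the isolated cells. Expression is given as TPM, an abundance of transcripts per length that adds up to the same total in every library. Libraries are named by mouse.

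Intermediate filaments are rope-like polymers that give astrocyte processes their stiffness and shape. GFAP is the protein by which reactive astrocytes are most often recognised, and it polymerises with vimentin, which is also made by immature astrocytes, ependymal cells, endothelial cells and fibroblasts. Nestin and synemin do not form filaments by themselves and need vimentin or a related partner. Nestin marks neural progenitors and is made again by astrocytes near a wound, and synemin tethers the filament network to other structures. More GFAP and vimentin around cortical lesions is the textbook sign of reactive astrogliosis.

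Gfap (ENSMUSG00000020932) lies on the minus strand of chr11:102887336-102900912 of GRCm38. Vim (ENSMUSG00000026728) lies on the plus strand of chr2:13573927-13582826. Nes (ENSMUSG00000004891) lies on the plus strand of chr3:87971078-87980451, and Synm (ENSMUSG00000030554) on the minus strand of chr7:67730160-67759742. The positions are those of GENCODE vM21. The sequence around the RefSeq start of Gfap is shown because Gfap was the member with the highest level and the largest difference between injured and sham cortex. It spans chr11:102897188-102897450 of GRCm38.p6 on the minus strand and ends 13 bases after the start, and the capitals mark a match to TTCNNNGAA, the palindrome that STAT transcription factors bind.
Gfap: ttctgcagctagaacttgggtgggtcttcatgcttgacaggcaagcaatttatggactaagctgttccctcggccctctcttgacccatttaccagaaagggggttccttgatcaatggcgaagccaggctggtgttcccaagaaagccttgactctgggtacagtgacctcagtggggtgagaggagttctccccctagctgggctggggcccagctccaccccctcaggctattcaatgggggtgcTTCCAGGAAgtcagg

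The match runs from position -2 to position 7 counted from the start base as 1. In windows from 250 bases before to 50 after the start, searched on both strands, TTCNNNGAA was present in 8.3% of 32851 RefSeq starts and, among the members, at Gfap alone. The other motifs searched were TGANTCA (the AP-1 site, 7.81% of windows), TTGGC (the core of the NFI site, 46.7%), GGGCGG (the Sp1 site, 35.7%) and TATAAA (the TATA box, 13.6%). None of the 4 starts held TGANTCA. The Vim start held 2 TTGGC and 1 TATAAA, the Synm start 1 TTGGC and the Nes start 2 GGGCGG, and no match overlapped another. The Vim window lies inside the first exon of a longer GENCODE transcript. The Gfap window also lies inside the GENCODE span of its gene, whose 5' end on the minus strand is 102900912, so the RefSeq start is not that end. These matches describe letters in a window and were not measured as binding sites.

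All 12 astrocyte markers, among them Slc1a3, Aqp4 and Aldh1l1, were present in every library, the lowest value being 147.5 TPM for S100b, and their sum lay between 18451 and 26117 TPM. Markers of other cells were also present, with sums of 120.3 to 855 TPM for 10 microglial genes, 520 to 4463 TPM for 10 oligodendrocyte genes, 37.1 to 624 TPM for 8 neuronal genes, 352 to 2718 TPM for 10 endothelial genes, 796 to 5119 TPM for 10 mural genes, 113 to 529.6 TPM for 10 meningeal and fibroblast genes and 16.99 to 151 TPM for 6 genes of oligodendrocyte precursors. The ipsilateral library of PTE- mouse 9_14 stood apart, with 10727 genes above 0 TPM against 15599 to 18534 in the other 36 libraries. Of 7981 genes above 5 TPM in all other libraries, 776 were listed at 0 in this one, and the same count was 0 for each of the other libraries. It also held the highest mural sum, 5119 TPM, of which Vtn alone made 4285 TPM. The mural markers went different ways in this library. Kcnj8, Abcc9, Anpep and Higd1b were also highest there, Pdgfrb (70.8 TPM) and Rgs5 (56.0 TPM) were near their medians, and Acta2, Tagln and Myh11 were listed at 0. The members' ipsilateral differences that involve PTE- mice are therefore given with and without the library of 9_14. Other ipsilateral results include it where its omission is not stated.

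Gfap, the defining filament gene of reactive astrocytes, was higher in the ipsilateral cortex of injured mice than in sham. The 5 sham libraries held 188, 235, 245, 324 and 373 TPM. The 10 PTE- libraries ran from 179 TPM over a median of 603 TPM to 1065 TPM, and the 4 PTE+ libraries held 422, 493, 887 and 970.3 TPM. Thus 13 of 14 injured libraries lay above every sham library, and the exception, with 179 TPM, was that of mouse 9_14. Group means were 273 ± 74.0 TPM in sham (SD, n = 5), 638 ± 240.0 TPM in PTE- (SD, n = 10) and 693 ± 276 TPM in PTE+ (SD, n = 4). On the log2(TPM + 1) scale the difference from sham was 1.14 (SE 0.31) in PTE- and 1.29 (SE 0.38) in PTE+. Without the library of 9_14, the PTE- mean was 689 ± 189 TPM (SD, n = 9), the PTE- difference from sham was 1.33 (SE 0.22), and all 9 PTE- libraries lay above sham. The mouse names begin with 8 or 9, which the labels do not explain, and within each series sham lay below the injured libraries apart from 9_14. In the 8 series sham held 188 and 235 TPM and injured mice 422 to 788 TPM, and in the 9 series sham held 245 to 373 TPM and the other injured mice 475 to 1065 TPM.

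Gfap overlapped between PTE+ and PTE- mice. The 4 PTE+ libraries lay inside the PTE- range, 2 above and 2 below the PTE- median, and the difference was 0.15 (SE 0.33) on the log2 scale. Without PTE- mouse 9_14 it was -0.04 (SE 0.24), and 1 of the 4 lay below the PTE- range. In bulk RNA of isolated cells, more cells of a reactive type and more Gfap RNA per cell cannot be told apart.

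In the opposite cortex the groups overlapped. Sham libraries held 174, 204, 389, 439.8 and 444 TPM, PTE- libraries 117 to 560 TPM around a median of 288 TPM, and PTE+ libraries 139, 156, 339.47 and 339.85 TPM. Of 13 injured libraries 1 lay above every sham library and 4 below every sham library. The differences from sham were -0.13 (SE 0.33) in PTE- and -0.45 (SE 0.40) in PTE+, and PTE+ differed from PTE- by -0.33 (SE 0.36).

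**Figure D1:**
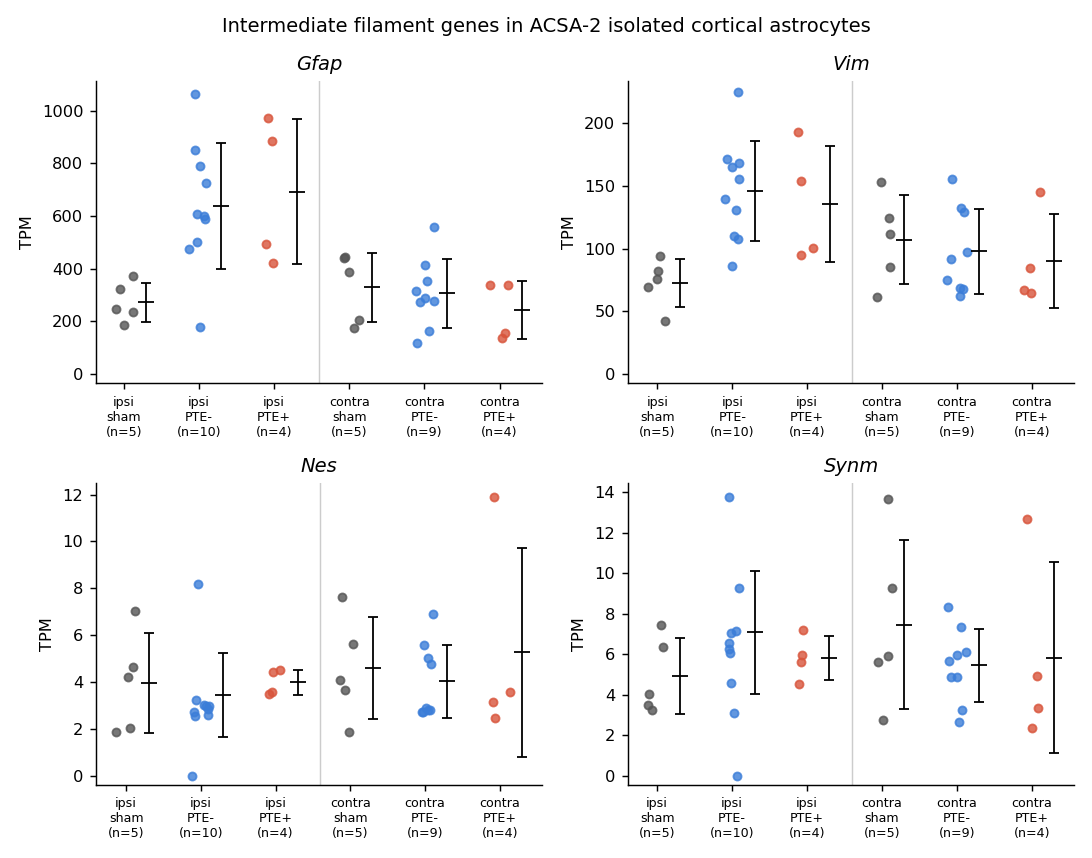
TPM of Gfap, Vim, Nes and Synm (vertical axes) in each library, by hemisphere and group (horizontal axis), with the group mean and SD drawn beside the points; for Nes and Synm the ipsilateral PTE- mean leaves out mouse 9_14. Of the 14 ipsilateral injured libraries, 13 lie above every sham library for Gfap and 13 for Vim, whereas the groups overlap for Nes and Synm.

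Vim, which encodes the partner that copolymerises with GFAP, was also higher in the ipsilateral cortex of injured mice. Sham libraries held 42.7, 69.7, 75.9, 82.4 and 94.0 TPM. PTE- libraries ran from 86.0 TPM over a median of 148 TPM to 225 TPM, and PTE+ libraries held 95.3, 101, 154 and 193 TPM. Here too 13 of 14 injured libraries lay above every sham library, and the exception was PTE- mouse 9_12 with 86.0 TPM. The means were 73.0 ± 19.2 TPM in sham (SD, n = 5), 146 ± 40.0 TPM in PTE- (SD, n = 10) and 136 ± 46.6 TPM in PTE+ (SD, n = 4). The differences from sham were 0.99 (SE 0.22) in PTE- and 0.87 (SE 0.27) in PTE+, and PTE+ differed from PTE- by -0.12 (SE 0.24). Without the library of 9_14 these differences were 0.99 (SE 0.22), 0.87 (SE 0.27) and -0.12 (SE 0.24). Of the 13 injured libraries left, 12 lay above every sham library. Contralateral Vim was 107 ± 35.5 TPM in sham (SD, n = 5), 98.0 ± 33.7 TPM in PTE- (SD, n = 9) and 90.3 ± 37.4 TPM in PTE+ (SD, n = 4), with 1 of 13 injured libraries outside the sham range.

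Nes was near the lower limit of the levels tested. Ipsilateral sham libraries held 1.86, 2.03, 4.22, 4.66 and 7.05 TPM. The PTE- median was 2.91 TPM, with 0.01 TPM listed for mouse 9_14 and 8.18 TPM for mouse 9_20, while the other 8 libraries lay between 2.57 and 3.24 TPM. PTE+ libraries held 3.48, 3.58, 4.41 and 4.51 TPM, all inside the sham range. Without 9_14 the PTE- mean was 3.46 ± 1.78 TPM (SD, n = 9) against 3.96 ± 2.14 TPM in sham (SD, n = 5), a difference of -0.11 (SE 0.26) on the log2 scale. With it the difference was -0.32 (SE 0.37). In the contralateral cortex sham held 1.87 to 7.65 TPM and PTE- 2.71 to 6.90 TPM, and PTE+ held 2.45, 3.14, 3.57 and, in mouse 9_17, 11.9 TPM.

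Synm, the tether of the network, was likewise low. Ipsilateral sham libraries held 3.25, 3.48, 4.06, 6.35 and 7.45 TPM, and PTE+ libraries held 4.52, 5.63, 5.97 and 7.19 TPM within the sham range. The PTE- libraries other than 9_14 ran from 3.11 to 13.8 TPM with a mean of 7.10 ± 3.04 TPM (SD, n = 9), and 9_14 was listed at 0. The PTE- difference from sham was 0.13 (SE 0.44) with that library and 0.43 (SE 0.25) without it, and 2 PTE- libraries lay above every sham. Contralateral Synm was 7.46 ± 4.18 TPM in sham (SD, n = 5), 5.46 ± 1.80 TPM in PTE- (SD, n = 9) and 5.84 ± 4.70 TPM in PTE+ (SD, n = 4), and again the highest PTE+ library was that of mouse 9_17, with 12.7 TPM. Between PTE+ and PTE- mice ipsilateral Nes differed by 0.43 (SE 0.40) with the library of 9_14 and by 0.23 (SE 0.28) without it, and ipsilateral Synm by 0.12 (SE 0.47) and -0.18 (SE 0.27).

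Across all libraries the members kept a steep order. TPM is a level per length, so the 4 genes can be compared: Gfap was above Vim in 36 of 37 libraries, Vim above both Nes and Synm in 37 of 37, and Synm above Nes in 29 of 37. The exception to the first was the contralateral library of PTE- mouse 9_12, where Vim (156 TPM) exceeded Gfap (117 TPM). The ratio of Gfap to Vim had a median of 3.52 in ipsilateral sham (2.28 to 7.58), 4.52 in PTE- (1.28 to 6.34) and 4.96 in PTE+ (4.43 to 5.77), and the ranges overlapped. Without the library of 9_14 the PTE- range was 3.78 to 6.34, inside that of sham. Ordered by mean, Gfap ran from ipsilateral PTE+ and PTE- over contralateral sham, contralateral PTE- and ipsilateral sham to contralateral PTE+. The step from ipsilateral PTE- to contralateral sham, 307 TPM, was 1.28 times the larger SD of the pair, and the other steps were at most 0.266 of it. For Vim the order was ipsilateral PTE-, ipsilateral PTE+, contralateral sham, PTE- and PTE+ and then ipsilateral sham, and each step was at most 0.612 of the larger SD. For Nes and Synm each step, without the library of 9_14, was at most 0.291 of the larger SD. Neighbouring ranges overlapped for every gene.

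Differentially expressed genes (DEGs) were called by the thresholds of the study, a change of 1.2-fold or more and an unadjusted p under 0.05, here with limma on log2(TPM + 1). A gene entered the fit where 1 group or more averaged over 5 TPM. Gfap and Vim met this rule in the ipsilateral PTE- and PTE+ contrasts with sham, 2 of the 3 members that passed the filter on TPM, where 1.91% and 0.791% of all 10614 genes were called. No member met it between PTE+ and PTE- mice (0.48% of genes). Contralaterally none of 4 members met it, with 3.78% of 10672 genes called in PTE- against sham, 2.38% in PTE+ against sham and 2.11% in PTE+ against PTE-. Nes did not pass the filter in the ipsilateral cortex. Because these contrasts served to choose the members, the choice itself favoured such calls. The members' counts stand as a description and no test, and the shares of all genes are no yardstick for them. After Benjamini-Hochberg adjustment over all genes 0.0% of genes were called in each of the 6 group comparisons (limma), where an unadjusted p under 0.05 was reached by 218, 88 and 51 genes ipsilaterally and by 432, 260 and 236 contralaterally.

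**Figure D2:**
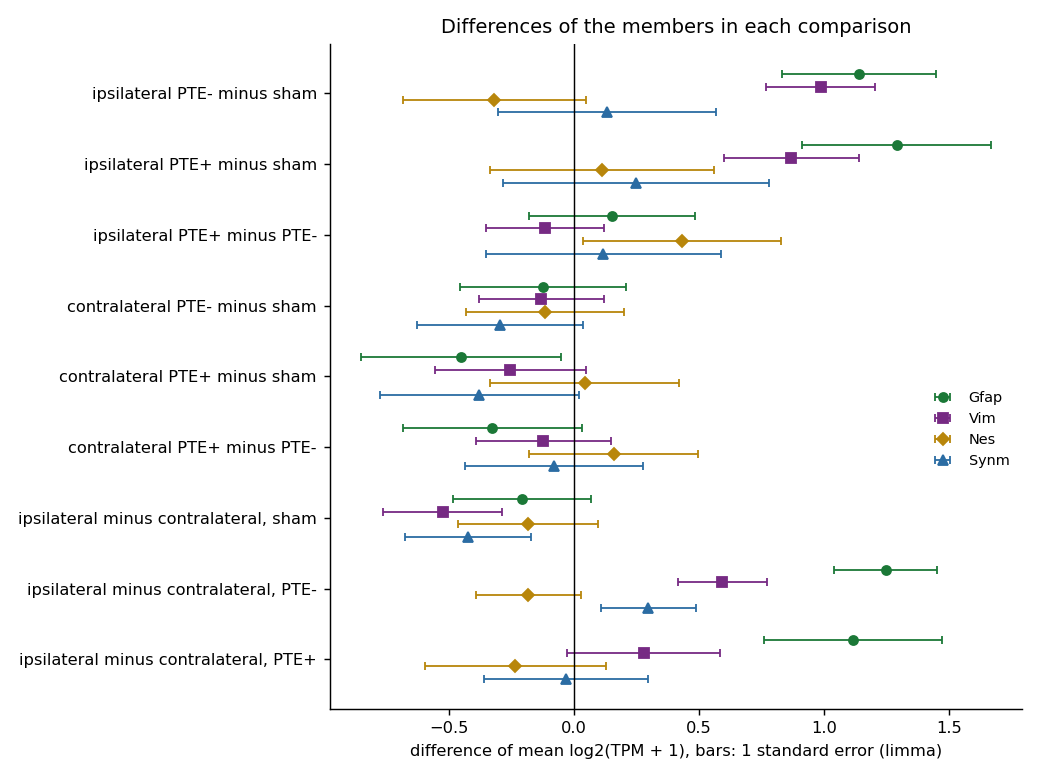
Difference of mean log2(TPM + 1) of each member (horizontal axis, bars of 1 standard error from limma) in the group and hemisphere comparisons (vertical axis). Gfap and Vim lie to the right of 0 in the ipsilateral contrasts of injured with sham mice. Both also do so in the ipsilateral minus contralateral differences of injured mice, Vim in PTE+ by less than 1 standard error.

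The mice with a library from each hemisphere allow each animal to serve as its own control. The difference between hemispheres is not a contrast named in the choice of the members, but it draws on the same libraries. It is not independent evidence. The p-values of the members below take no account of that choice and are given as a description. In PTE- mice Gfap was higher on the struck side in 9 of 9 animals, by 1.07 to 4.46 times with a median of 2.404. The mean log2 difference was 1.25 (SE 0.21), with an adjusted p of 0.0152 over 10869 genes (limma), and Gfap was 1 of 14 genes called at an adjusted p under 0.05 (0.129% of genes). The call was lost without PTE- mouse 8_11 (1.13, adjusted p = 0.0636), without PTE- mouse 8_14 (1.21, adjusted p = 0.0605) and without the filter on TPM (1.25, adjusted p = 0.0997). In PTE+ mice Gfap was higher on the struck side in 3 of 3 animals, at 1.45, 2.61 and 2.71 times, a mean log2 difference of 1.12 (SE 0.36, adjusted p = 0.9996). In sham mice the ratios were 0.428, 0.553, 0.957, 1.35 and 1.59, so 2 of 5 animals were higher on the operated side, and the difference was -0.21 (SE 0.28, adjusted p = 0.818). Without sham mouse 8_15 it was 0.05.

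**Figure D3:**
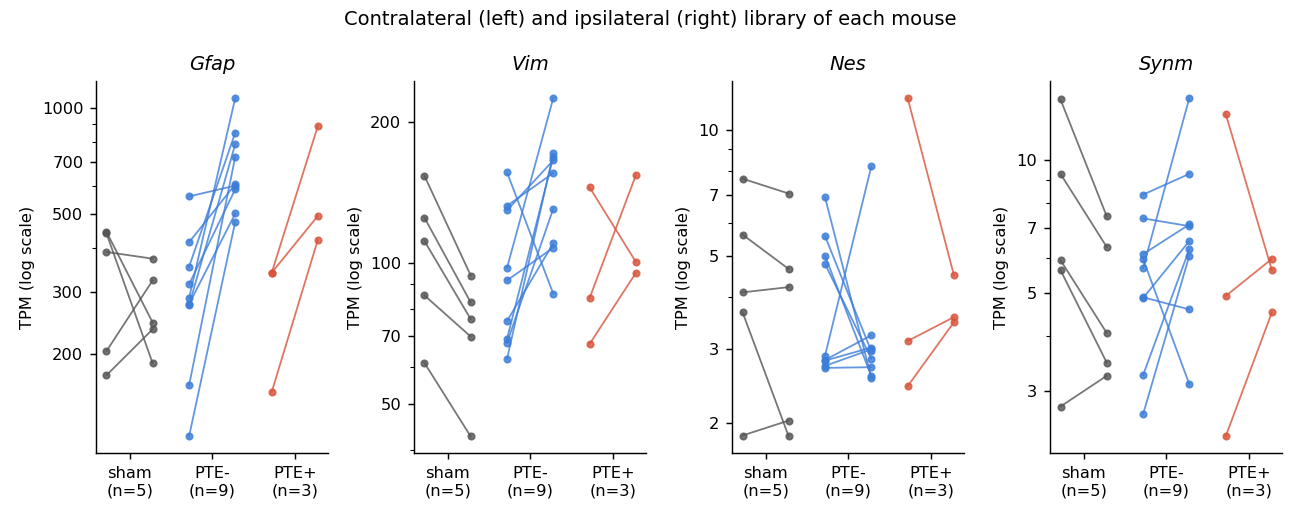
TPM of each member (vertical axes, log scale) in the contralateral (left point) and ipsilateral (right point) library of each of 17 mice, joined by a line, for 5 sham, 9 PTE- and 3 PTE+ mice. Every Gfap line of an injured mouse goes up towards the struck side, and every Vim line of a sham mouse goes down.

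All 5 sham mice had less Vim, the partner of GFAP, on the operated side, with ratios of 0.614 to 0.817 and a mean log2 difference of -0.53 (SE 0.24, adjusted p = 0.4931). In PTE- mice 8 of 9 had more Vim on the struck side, with ratios of 1.17 to 2.74, and mouse 9_12 had 0.551. The mean log2 difference was 0.59 (SE 0.18, adjusted p = 0.254, limma), and without 9_12, the mouse that went the other way, it was 0.77. In PTE+ mice the ratios were 0.694, 1.42 and 1.83, a mean log2 difference of 0.28 (SE 0.31, adjusted p = 0.9996), and without mouse 9_18 it was -0.01. Synm was lower on the operated side in 4 of 5 sham mice (-0.43, SE 0.25) and higher on the struck side in 6 of 9 PTE- and 2 of 3 PTE+ mice. Nes was higher on that side in 2 of 5 sham, 5 of 9 PTE- and 2 of 3 PTE+ mice, with mean log2 differences between -0.24 and -0.18.

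The hemisphere difference of Gfap exceeded that of sham by 1.46 (SE 0.34) in PTE- and by 1.32 (SE 0.45) in PTE+ on the log2 scale, and PTE+ differed from PTE- by -0.13 (SE 0.41). For Vim these values were 1.12 (SE 0.30), 0.81 (SE 0.39) and -0.32 (SE 0.35). By the DEG rule Vim was called lower in sham (8.72% of all genes called), Gfap and Vim higher in PTE- (5.96%) and Gfap higher in PTE+ (2.58%). At an adjusted p under 0.05 0.0% of genes were called in sham and in PTE+ (limma). An unadjusted p under 0.05 was reached there by 1084 and 309 genes (9.97% and 2.84%).

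Genes of the reactive astrocyte programme, which the rule for the members does not name, were read from the same fits. This list and those of the filament system were chosen with earlier results of these data known. Their counts are therefore a description and not independent evidence. The list held 33 genes, of which 25 passed the filter ipsilaterally. In PTE- against sham 8 of 25 rose (32.0%, against 1.91% of all genes called), 0 fell and 17 did not pass the test, and the median difference of the list was 0.37 against -0.04 over all genes tested. Among the 8 called genes the 5 with the largest differences were Lgals3, which encodes galectin-3, at 1.05 (SE 0.22), Serpina3n, a secreted serine protease inhibitor, at 1.003 (SE 0.24), the complement gene C4b at 0.95 (SE 0.31), Cd44, the hyaluronan receptor, at 0.78 (SE 0.29) and Aspg, an asparaginase, at 0.72 (SE 0.23). Serpina3n measured 129 ± 32.1 TPM in PTE- (SD, n = 10) and 66.6 ± 26.8 TPM in sham (SD, n = 5), and Lgals3 43.8 ± 12.15 and 20.3 ± 5.15 TPM. Over the 8 the adjusted p ran from 0.502 to 0.997 (limma). Without the library of 9_14, 11 of 25 rose, among them C3 (1.40, SE 0.52), and Amigo2 fell (-0.40, SE 0.18). In that fit 4.26% of all genes were called, against 1.91% with the library, and the list median was 0.575. C3 and Amigo2 are named here after their values were seen. The Cd44 call was lost without sham mouse 8_16, with a difference of 0.63.

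In PTE+ against sham 6 of the 25 rose (24.0%, against 0.791% of all genes called) and 0 fell, with a list median of 0.47 against 0.09 over all genes. C4b differed by 1.02 (SE 0.38), Cd44 by 0.96 (SE 0.35), Aspg by 0.74 (SE 0.28), Serpina3n by 0.72 (SE 0.30) and Lgals3 by 0.69 (SE 0.26), each with an adjusted p of 1 (limma). Without the PTE- library of 9_14, which enters the common spread, 8 of 25 rose, and 2.04% of all genes were called. Leaving out single mice ended some of these calls: C4b (0.77) and Aspg (0.55) without PTE+ mouse 9_19, Lgals3 (0.58) without PTE+ mouse 8_10, and Serpina3n without sham 8_15 (0.59) or 9_10 (0.53) or PTE+ 9_18 (0.57) or 9_19 (0.55). Both comparisons share the 5 sham libraries. Between PTE+ and PTE- mice 0 of 25 were called, against 0.48% of all genes. Contralaterally 0 of 24 were called in PTE- against sham, where 3.78% of all genes were called. In each of the other comparisons 1 was called lower (4.17%, against 2.38% and 2.11% of all genes). Lcn2 was called in PTE+ against sham (-1.96, SE 0.93), where sham mouse 8_16 alone held 78.6 TPM. The Lcn2 call was lost in 14 of 18 fits that left out 1 library, among them that without 8_16 (-0.97). Lgals1 was called in PTE+ against PTE- (-0.39, SE 0.14), a call lost without PTE+ mouse 9_17.

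Between hemispheres of PTE- mice 12 of 25 reactive genes rose on the struck side (48.0%, against 5.96% of all genes called) and 0 fell, with a list median of 0.46 against -0.01 over all genes. After adjustment over all genes C4b (1.26, SE 0.17, adjusted p = 0.00523, higher in 9 of 9 mice), Serpina3n (1.05, SE 0.16, adjusted p = 0.00857, 9 of 9), the complement gene C3 (1.70, SE 0.31, adjusted p = 0.0306, 8 of 9) and the iron-binding lipocalin Lcn2 (2.498, SE 0.48, adjusted p = 0.043, 8 of 9) stood beside Gfap among the 14 genes (limma). Leaving out each of 17 mice in turn ended the adjusted call of C4b in 0 fits, of Serpina3n in 0, of C3 in 6 (adjusted p up to 0.122) and of Lcn2 in 11 (up to 0.152), among them the fits without 8_11 and without 8_14. Without the replicate block C4b kept it (adjusted p up to 0.0178 over 5 other settings), and Serpina3n (adjusted p = 0.0681), C3 (0.342) and Lcn2 (1) did not. C3 and Lcn2 also lost it with a pseudocount of 0.1 (adjusted p = 0.101 and 0.151, limma). With no filter on TPM both lost it too (0.141 and 0.172). Timp1, an inhibitor of matrix metalloproteinases, differed by 0.93 (SE 0.36, adjusted p = 0.4504), and by 0.64 without mouse 8_11, where it was no longer called. In PTE+ mice 5 rose and 1 fell (24.0%, against 2.58% of all genes called): Cxcl10, a chemokine, by 1.26 (SE 0.42), Serpina3n by 1.14 (SE 0.27), C4b by 1.12 (SE 0.30), Cd44 by 0.72 (SE 0.30) and Aspg by 0.59 (SE 0.24) rose, and the proteoglycan gene Srgn fell by 0.62 (SE 0.29), each with an adjusted p of 0.9996 (limma). The calls of Cxcl10 (0.97) and Cd44 (0.29) were lost without mouse 9_18 and that of Srgn (-0.28) without 9_17. In sham mice 0 rose and 2 of 25 were called lower, 8.0% against 8.72% of all genes called, so the share was near that over all genes. They were Timp1 (-1.19, SE 0.48) and S100a10 (-0.66, SE 0.30), both lost without mouse 9_10 (-0.62 and -0.34), and S100a10 also with median centring (-0.54).

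**Figure D4:**
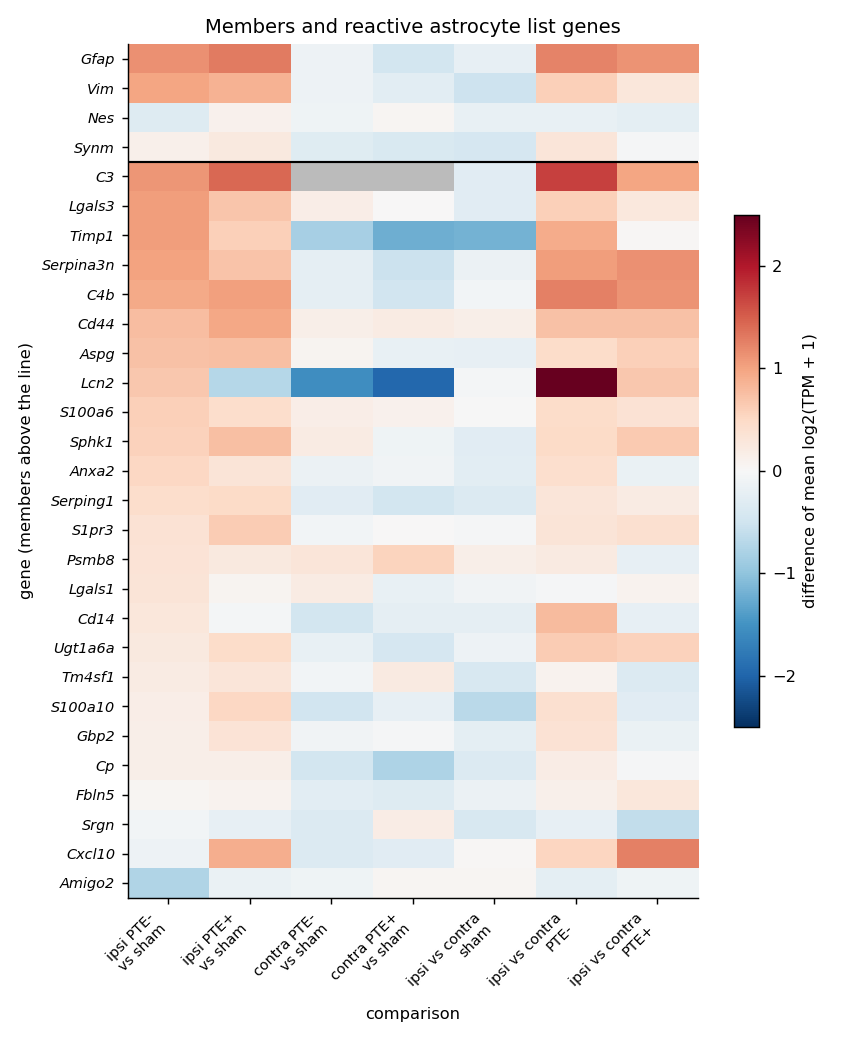
Difference of mean log2(TPM + 1) (colour) of the 4 members and of the 25 reactive astrocyte genes that passed the filter on TPM between hemispheres (vertical axis) in 7 comparisons (horizontal axis); grey cells were not estimated. C4b and Serpina3n, like Gfap, are above 0 in both ipsilateral contrasts with sham and in both hemisphere differences of injured mice. So are Vim and other list genes, among them C3, Lgals3, Cd44 and Aspg, whereas some, such as Amigo2, are not.

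The other genes of the filament system were read in the same way. In the ipsilateral contrasts of PTE- and PTE+ with sham 0 of 53 tested genes were called. Of all genes 1.91% and 0.791% were called, so these shares were near those over all genes. The 53 comprised 8 other intermediate filament genes (Des, Iffo1, Ina, Krt10, Krt18, Lmna, Lmnb2 and Nefl), 7 linkers and 13 enzymes that modify filaments. The rest were 6 chaperones and 19 regulators of Gfap transcription. The list medians lay between -0.25 and 0.15 in PTE- and between -0.00488 and 0.195 in PTE+, against -0.04 and 0.09 over all genes. The linker Macf1, which joins filaments to microtubules and actin, was the 1 gene of 53 called between PTE+ and PTE- mice (1.89%, against 0.48% of all genes), at 142 ± 52.0 TPM (SD, n = 4) and 99.5 ± 21.6 TPM (SD, n = 10), a difference of 0.47 (SE 0.20, adjusted p = 0.975, limma). It was 0.27 without PTE+ mouse 9_17 and 0.39 without 9_19, and not called in either case. Contralaterally 2 of 53 were called in PTE- against sham and 2 of 53 in PTE+ against sham, 3.77% each against 3.78% and 2.38% of all genes, shares near those over all genes. They were the linker Dst (-0.46, SE 0.21) and the protease gene Casp6 (-0.36, SE 0.15) in PTE-, and the glycosyltransferase gene Ogt (-0.54, SE 0.25) and the kinase gene Rock1 (-0.53, SE 0.25) in PTE+, all 4 lower than in sham. Each of these 4 calls was lost by leaving out single mice (8, 5, 10 and 11 of 18 libraries in turn), and those of Dst and Casp6 also with median centring.

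Between hemispheres of sham mice 10 of 54 genes of these lists fell on the operated side (18.5%, against 8.72% of all genes called) and 0 rose: the linker Sptan1, the enzymes Rock1, Camk2d, Ogt, Casp6 and Pak2, the chaperone partner Bag3 and the transcription factors Klf4, Nfib and Sox9, by 0.31 to 0.55 on the log2 scale. Of all DEGs of that comparison 57 were higher and 891 lower, and with median centring 412 were higher and 263 lower, so the larger share lay lower in one scaling and higher in the other. Leaving out 1 mouse ended 9, and median centring 8, of the 12 named calls in sham mice. In PTE- mice Olig2, a transcription factor of the oligodendrocyte lineage, fell on the struck side in 9 of 9 animals, from 54.3 ± 22.7 to 37.3 ± 13.8 TPM (SD, n = 9), a difference of -0.51 (SE 0.09, adjusted p = 0.0218, limma). Its adjusted call was lost in 6 of 17 fits without 1 mouse (adjusted p up to 0.0774) and without the replicate block (adjusted p = 1). With no filter on TPM it was lost as well (adjusted p = 0.0559, limma). By the DEG rule 5 of 54 were called with Olig2 among them, 9.26% against 5.96% of all genes. Macf1 (-0.34, SE 0.16), the Notch target Hes1 (-0.38, SE 0.14) and Klf4 (-0.37, SE 0.16) also fell, and the small heat shock gene Hspb8 rose (0.32, SE 0.09), all 4 with an adjusted p from 0.254 to 0.541, and each of these 4 calls was lost by leaving out 1 mouse. In PTE+ mice Klf4 fell by 0.97 (SE 0.28) and Hspb8 rose by 0.34 (SE 0.16), 2 of 54 genes (3.7%, against 2.58% of all genes), each with an adjusted p of 0.9996 (limma). Both calls were lost without mouse 9_17. Of 17 fits without 1 mouse, 1 ended the Klf4 call and 10 ended that of Hspb8, which was also lost without the replicate block.

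Markers of other cells were set beside the members. The summed level of 10 oligodendrocyte markers, all detected, was 520 to 4463 TPM in ipsilateral sham (median 3091), 774 to 2262 TPM in PTE- (median 1338) and 1183 to 2319 TPM in PTE+ (median 1431), and its part in the results was not tested. The sum of 8 ependymal markers was 284 to 867 TPM in ipsilateral sham (median 506), 399 to 1269 TPM in PTE- (median 800.3) and 426 to 646 TPM in PTE+ (median 612). All 8 were detected, and Ak7 and Tekt1 were listed at 0 in 1 library, that of 9_14. After the mean of each group and hemisphere was removed, Vim varied with the ependymal sum over 37 libraries (Pearson r = 0.67, and 0.70 without 9_14), and for Gfap r was 0.21 and 0.09. For Nes it was 0.46 and 0.39, and for Synm 0.45 and 0.37. The Vim value was the highest r of a member with any marker sum over all libraries. Other pairs also varied together: Synm had an r of 0.59 with the oligodendrocyte precursor sum (0.72 without 9_14) and 0.57 with the microglial sum (0.48). The PTE- mouse with more Vim on the unstruck side, 9_12, had its highest ependymal sum there, at 1428 TPM, which was also the highest of all libraries. The part of ependymal RNA in the Vim values was not tested.

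**Figure D5:**
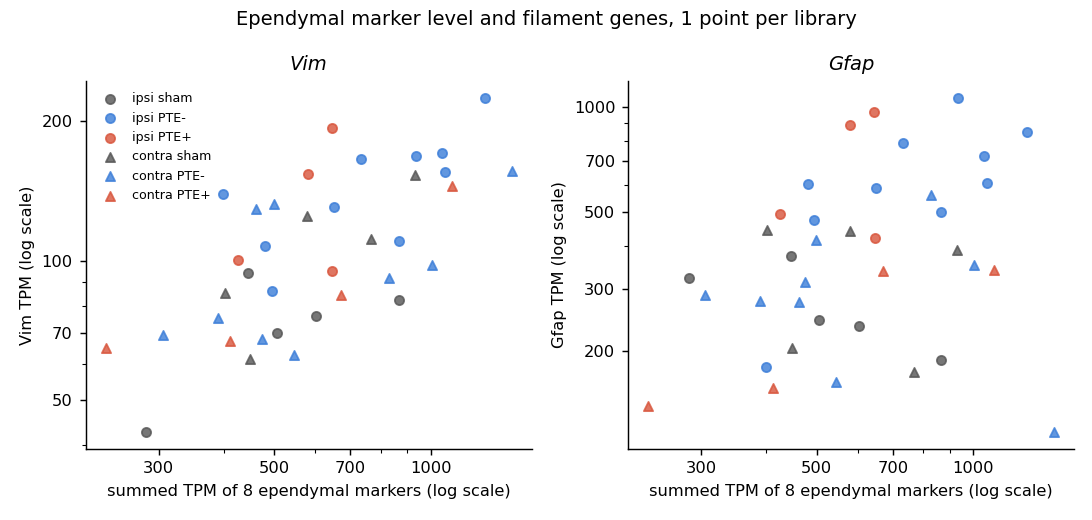
TPM of Vim and Gfap (vertical axes, log scale) against the summed TPM of 8 ependymal markers (horizontal axis, log scale), with 1 point per library, coloured by group and shaped by hemisphere. Vim tends to be higher where the ependymal sum is higher (r = 0.67 with group means removed), and for Gfap the points scatter more (r = 0.21).

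The members also varied with one another within groups, on log2(TPM + 1) with group means removed. Gfap correlated with Synm (r = 0.72), with Nes (r = 0.35) and with Vim (r = 0.32), Nes with Synm (r = 0.73) and with Vim (r = 0.40), and Vim with Synm (r = 0.43), over 37 libraries that share preparation and, in 17 mice, the animal. Without the library of 9_14 the r of Gfap was 0.59 with Synm, 0.10 with Nes and 0.36 with Vim, that of Nes was 0.58 with Synm and 0.49 with Vim, and that of Vim with Synm was 0.58. Among 10232 genes the ones most like Gfap were A2m, a protease inhibitor gene (r = 0.86), Yap1 (0.76) and Wwc1 (0.76). Those most like Vim were Cfap126, a cilium gene (0.78), BC005624 (0.77) and Anxa2 (0.76). Those most like Nes were Tie1, an endothelial receptor gene (0.87), Uaca (0.87) and Sh3bp4 (0.86), and those most like Synm were Tacc2 (0.89), Rcc2 (0.89) and Slc35e3 (0.88). Without the library of 9_14, A2m (0.82) remained first for Gfap, BC005624 (0.81) remained second for Vim and Slc35e3 (0.80) stayed among the 3 for Synm, and the other places were taken by other genes.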

How the data were processed

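The authors trimmed paired reads with Trim Galore 0.6.4, estimated expression on mm10 with RSEM 1.2.28 and Bowtie2 2.4.1, and deposited TPM per Ensembl gene for each hemisphere; the submitters' notes also name DESeq2 1.36.0, which the study ran on raw counts. The deposited TPM keep no sequencing depth, so no counting error could be given. The annotation release is not given in the sources used here. Symbols matched 21856 identifiers and failed for 119. All per-library columns were used.

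TPM were transformed to log2(TPM + 1). Genes averaging over 5 TPM in 1 group or more were fitted with limma 3.58.1 (R 4.3.3, with trend), with all 3 groups of a hemisphere in 1 fit, or on the ipsilateral minus contralateral difference within mice, and p-values were adjusted by Benjamini-Hochberg over all genes. Code was tested on simulated data. Libraries of 1 mouse deviated together (median r = 0.42 over 17 mice, above 0.1 in 16), and the pairing comes from the shared animal. Each library is 1 mouse and hemisphere.

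Members and lists were chosen with earlier results of these data known. Named list genes were all DEGs of a list and comparison or, beyond 5, the 5 with the largest change, and 3 genes most correlated with each member. Alternatives were a pseudocount of 0.1, median centring, quantile normalization, no filter, the name prefix as a covariate, a fit of 2 groups, ratios of mean TPM, no pairing and each library left out. Likeness and group values without 9_14 were added after seeing the data.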

Additional observations from a re-analysis of the deposited data

Results flagged for a closer look

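A library was listed here where its gap to the nearest of the others in its group of 4 to 10 exceeded Dixon's 95% critical value for the range. Among 194 groups of values from the members and the named list genes 19 were listed, and chance gives about 1 in 20. For the members these were Nes in ipsilateral PTE- mouse 9_20 (8.18 TPM, next highest 3.24 TPM) and Nes in contralateral PTE+ mouse 9_17 (11.91 TPM, next highest 3.57 TPM). The contralateral 9_17 library was also far from its group for Sptan1 (49.24 TPM). The ipsilateral PTE- library 9_14 was listed for Casp6 (0 TPM) and Hes1 (128.5 TPM).

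Sham libraries were listed for Serpina3n (151.2 TPM, contralateral 9_9), Macf1 (163.1 TPM) and Sox9 (215.6 TPM) in ipsilateral 9_11, Lcn2 (78.58 TPM) and Timp1 (37.36 TPM) in contralateral 8_16, Timp1 (17.97 TPM) in ipsilateral 8_16 and Cxcl10 (18.49 TPM) in contralateral 9_10. PTE- libraries were listed for C4b (65.8 TPM, contralateral 9_13), Dst (25.46 TPM) and Klf4 (10.5 TPM) in contralateral 8_14, Timp1 (19.67 TPM, ipsilateral 8_11) and C3 (25.36 TPM, ipsilateral 9_20). PTE+ libraries were listed for Sox9 (99.62 TPM, ipsilateral 8_10) and S100a10 (8.1 TPM, contralateral 8_17).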

How the results depend on the processing

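The members' group differences under 444 fits without 1 library and 120 other alternatives each moved by less than 1 SD of the libraries within groups. For the fits without 1 library this limit was hard to exceed. Leaving out a library of a group outside the contrast cannot move the difference, and leaving out 1 inside it moves a group mean by only part of the SD. The sign of 12 of the members' 24 group differences turned in at least 1 fit without 1 library, and the 4 ipsilateral differences of Gfap and Vim from sham turned in 0 alternatives. The hemisphere difference of Gfap in PTE- mice lost its call with no filter on TPM (1.247) and without mouse 8_11 (1.134) or 8_14 (1.21), within a range of 1.134 to 1.39 over the 17 mice left out in turn, and without the replicate block, that is without the pairing of libraries by mouse, it kept it (adjusted p = 0.0493). Leaving out 1 mouse gave -0.426 to 0.045 for Gfap in sham, 0.488 to 0.774 for Vim in PTE-, -0.013 to 0.679 for Vim in PTE+ and -0.406 to 0.474 for Synm in PTE+, the last also turning with a pseudocount of 0.1 (0.00558) and quantile normalization (0.0163). With no filter DEGs numbered 434, 223 and 161 ipsilaterally (PTE- and PTE+ against sham, PTE+ against PTE-), 691, 451 and 368 contralaterally and 483 between hemispheres of PTE+ mice. A fit of 2 groups gave 163 for ipsilateral PTE+ against sham, and quantile normalization 572 between hemispheres in sham. Without the replicate block the hemisphere DEGs were 296 in sham, 295 in PTE- and 72 in PTE+. The 14 genes with an adjusted p under 0.05 became 8 with a pseudocount of 0.1, 7 with no filter and 3 without the block. Leaving out 1 library moved the DEGs to 178 to 450, 55 to 322 and 23 to 109 ipsilaterally, 237 to 830, 137 to 625 and 149 to 382 contralaterally and 495 to 1215 in sham and 242 to 653 in PTE+ between hemispheres, and the adjusted calls to 0 to 2 for ipsilateral PTE- against sham and 3 to 21 between hemispheres of PTE- mice. The libraries that moved a DEG count by over 1.5 times were ipsilateral 9_11, 9_14, 8_10, 9_17 and 9_19, contralateral 8_16, 9_9, 9_11, 8_10, 8_17, 9_17 and 9_18, and, between hemispheres, mice 8_15, 9_10 and 8_10. The split of DEGs into higher and lower changed with median centring from 62 and 22 to 36 and 41 (ipsilateral PTE+ against sham), 34 and 17 to 17 and 33 (ipsilateral PTE+ against PTE-, where all genes had a median of 0.12), 54 and 349 to 314 and 142 (contralateral PTE- against sham), 64 and 190 to 128 and 174 (contralateral PTE+ against sham), 160 and 65 to 125 and 183 (contralateral PTE+ against PTE-) and 94 and 186 to 193 and 113 (hemispheres of PTE+). Of the named list genes 692 of 810 fits without 1 library and 193 of 247 other alternatives kept the call, and 0 reversed. The cause of these changes was not tested. TPM keep no depth, so the precision of low genes such as Nes and Synm is unknown.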
